A study of Mus musculus with 16 samples.

Results

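The 10 genes described here are the mouse genes of KMT2A fusion biology: Kmt2a itself, the fusion partner Aff1, the cofactors Men1, Psip1 and Dot1l, and 5 genes reported as KMT2A fusion targets, Meis1, Hoxa7, Hoxa9, Hoxa10 and Mef2c. They were chosen by symbol and matched to Ensembl identifiers, and all 10 were found among the 55414 gene identifiers counted. RNA was sequenced in bulk from 16 libraries of leukaemia-propagating cells, the sorted cells taken to carry a leukaemia forward. All 16 came from mice labelled as a pro-B acute lymphoblastic leukaemia (pro-B ALL) model, positive for Kmt2a-AFF1 and overexpressing the microRNA miR-128a, so no library without the fusion or without miR-128a was compared. The 4 groups of 4 libraries were BM LSK and CNS LSK, Lin- cells carrying Sca1, cKit and IL7R, taken from marrow (BM) or from central nervous tissue (CNS), and BM LK and CNS LK, Lin- cells with cKit but no Sca1 (also labelled LK/CLP) from the same places. The labels do not say which libraries came from separate animals, nor give the animals' age, so p-values measure only the spread between these libraries.

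KMT2A is a histone H3 lysine 4 methyltransferase. When a chromosome break joins its front part to AFF1, the fusion protein keeps the part that binds menin (Men1), LEDGF (Psip1) and unmethylated CpG DNA, and gains a partner of the super elongation complex, which releases paused RNA polymerase II, and of DOT1L, the histone H3 lysine 79 methyltransferase. In many KMT2A-rearranged leukaemias the HOXA genes and the cofactor gene MEIS1 are highly transcribed, and MEF2C is a further reported target. HOXA-low forms of KMT2A-AFF1 leukaemia are also known. Gene counts cannot separate a fused from an unfused transcript of Kmt2a or Aff1, and the labels write the partner as AFF1 without giving the species of that sequence. In bulk RNA, fewer cells that express a gene and less RNA per cell cannot be told apart.

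The labelled cell type was checked against marker lists before the members were read. Of 10 pro-B markers, 9 had a median level under 5 times the background defined below, and they summed to between 2.07 and 8.90 counts-per-million (CPM) in a library. Pax5 and Ebf1, which define the B lineage, were at median ratios of 0.929 and 1.05 to background. Of 13 T-lineage markers, 11 were at or above 5 times background, and the list summed to between 2691 and 3380 CPM; Notch1 had a mean of 1404 CPM and Tcf7 of 577 CPM, while Cd3e was at 0.989 times background. The label pro-B is therefore used below only as the submitters' word. Kit, the antigen both sorts share, had a mean of 138 CPM. The CNS sorts showed no more than traces of resident brain macrophage RNA: that list summed to between 5.39 and 7.38 CPM in CNS LSK against 5.01 to 6.65 in BM LSK, and to between 5.50 and 6.62 in CNS LK against 4.47 to 5.20 in BM LK. P2ry12 and Tmem119, which define microglia, were at median ratios of 1.28 and 0.756 to background. The myeloid list varied more. It summed to 5.11 to 34.9 CPM in BM LSK, 7.98 to 37.5 in CNS LSK, 7.16 to 22.9 in BM LK and 9.82 to 34.8 in CNS LK. Its 6 tested genes had a median log2 change of 0.47 in CNS over both cell types. Of these, 2 had an unadjusted edgeR p under 0.05, beside 1727 of all 18878 genes, and 0 were called. The neural, glial and meningeal list summed to between 36.9 and 61.6 CPM in CNS LSK against 33.7 to 47.2 in BM LSK, and to between 42.6 and 46.7 in CNS LK against 38.8 to 42.7 in BM LK. Mbp alone gave a mean of 36.2 CPM. Within LSK the median log2 change of the 6 tested genes of that list was 0.42 in CNS. At an unadjusted edgeR p under 0.05, 2 of them passed, beside 1083 of all 18878 genes tested, and 0 were called. Of all marker genes, 2 were called. Ly6a, the gene of the sort antigen Sca1, was 1.30 ± 0.21 higher on the log2 scale in LSK than in LK (edgeR, adjusted p = 0.0117). Gata3, a T-lineage factor, rose by 0.25 ± 0.044 in CNS in the fit that paired libraries (edgeR, adjusted p = 0.00771). That fit called 0.667% of all genes. Without pairing, the 12 tested T-lineage genes had a median log2 change of 0.0044 in CNS, with a range of −0.25 to 0.57, so the list did not rise with Gata3. The Ly6a test counted the BM and CNS library of a shared label stem as separate. With their counts summed, 0 genes were called for LSK against LK, so Ly6a did not pass there. The part of these cells in the results below was not tested.

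RefSeq (GRCm38.p6) gives the 250 bases before the annotated starts of 9 of the 10 members. The start regions of Kmt2a, Dot1l, Hoxa9 and Meis1 are shown, for genes of either kind, because the CXXC domain of KMT2A binds unmethylated CpG. They are written from 5′ to 3′ on the strand of the gene, and capitals mark each CG. Kmt2a is taken from chr9:44881290-44881539 (minus strand), Dot1l from chr10:80754953-80755202 (plus strand), Hoxa9 from chr6:52227371-52227620 (minus strand) and Meis1 from chr11:19018970-19019219 (minus strand).
Kmt2a: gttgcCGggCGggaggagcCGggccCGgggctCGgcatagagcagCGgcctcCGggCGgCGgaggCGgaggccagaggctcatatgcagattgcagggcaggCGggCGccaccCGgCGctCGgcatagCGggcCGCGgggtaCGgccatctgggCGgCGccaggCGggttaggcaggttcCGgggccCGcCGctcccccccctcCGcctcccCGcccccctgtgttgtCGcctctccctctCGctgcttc
Dot1l: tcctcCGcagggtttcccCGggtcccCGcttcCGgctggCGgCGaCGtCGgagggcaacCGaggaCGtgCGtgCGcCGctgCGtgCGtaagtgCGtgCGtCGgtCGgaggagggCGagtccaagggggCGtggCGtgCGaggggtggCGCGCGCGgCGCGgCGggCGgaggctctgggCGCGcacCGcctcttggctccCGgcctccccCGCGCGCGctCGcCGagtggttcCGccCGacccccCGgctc
Hoxa9: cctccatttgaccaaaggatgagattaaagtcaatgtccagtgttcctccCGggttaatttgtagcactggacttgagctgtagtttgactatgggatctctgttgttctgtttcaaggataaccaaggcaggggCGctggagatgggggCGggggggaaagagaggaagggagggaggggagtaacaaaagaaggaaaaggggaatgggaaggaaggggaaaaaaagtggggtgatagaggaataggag
Meis1: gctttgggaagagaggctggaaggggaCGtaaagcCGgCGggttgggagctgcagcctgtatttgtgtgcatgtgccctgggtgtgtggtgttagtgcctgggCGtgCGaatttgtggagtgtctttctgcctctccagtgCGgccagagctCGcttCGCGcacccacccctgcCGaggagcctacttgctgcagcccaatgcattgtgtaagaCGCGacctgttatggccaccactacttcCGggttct
The motif searched was CG, which reads the same on both strands and cannot overlap itself; 92.1% of the 32851 such windows in the table hold at least 1, with a median of 6. The Kmt2a window holds 29 CG and the Dot1l window 44, more than 93.2% and 99.5% of all windows. The Hoxa9 window holds 3 CG, more than 29% of windows, and the Meis1 window 13, more than 68.5%. Among the other members, the start regions of Aff1 hold 35 and 20 CG, those of Men1 between 8 and 10, that of Hoxa7 7, those of Hoxa10 7 and 20, and those of Mef2c 1, 6 and 4. Methylation and KMT2A binding were not measured, so these counts describe the sequence only.

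The members fell into a tier of abundant transcripts and a tier near background. Kmt2a, Aff1, Men1, Psip1 and Dot1l had means of 6.23 to 25.3 CPM per kb of exon, while Hoxa7, Hoxa9, Hoxa10, Mef2c and Meis1 had means of 0.0401 to 0.0852. The background was measured in each library as the summed CPM of 1969 odorant and pheromone receptor genes (Olfr, Vmn1r and Vmn2r), taken as silent in blood cells, per kb of their exons. It ran from 0.0312 to 0.107 CPM per kb. Each of the 5 abundant members stood between 57.5 and 811 times this background in every library. Men1, the lowest of them, was 73.1 times as high per kb as Hoxa7, the highest of the low tier, and was above it in 16 of 16 libraries.

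**Figure D1:**
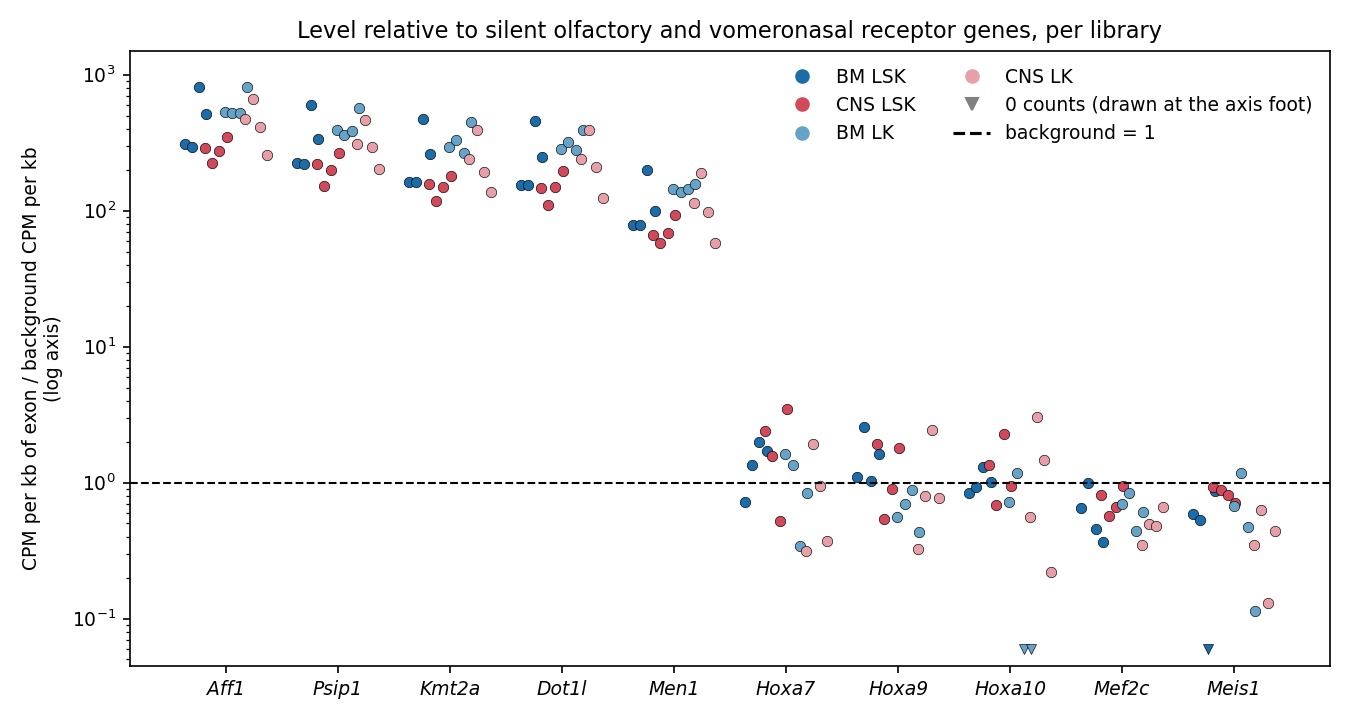
Level of each member divided by the background of the same library, on a log axis, with 1 point per library coloured by group and the dashed line at a ratio of 1. The 5 abundant genes lie between 57.5 and 811, and the 5 reported targets scatter around or below 1, with triangles at the foot for libraries at 0 counts.

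Aff1 encodes a scaffold of the super elongation complex and was the highest member per length, at 25.3 ± 1.14 CPM per kb (SD, n = 16). Its level was 228, 229, 239 and 256 CPM in the BM LSK libraries and 245, 227, 235 and 242 in CNS LSK. It was 229, 231, 241 and 255 CPM in BM LK and 260, 241, 244 and 228 in CNS LK. All 4 groups overlapped, and the highest library was 1.15 times the lowest.

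Kmt2a, the methyltransferase gene that the fusion breaks, was measured at 208, 224, 244 and 228 CPM in BM LSK and at 234, 212, 222 and 218 in CNS LSK. In BM LK it stood at 222, 257, 215 and 248 CPM, and in CNS LK at 236, 248, 202 and 215. The 4 groups overlapped within a whole range of 202 to 257 CPM, with a coefficient of variation of 7.0% over the 16 libraries. An RNA annotated on the opposite strand shares exon bases with Kmt2a, and since use of strand in the counting is not given in the sources used here, its reads cannot be told apart from those of Kmt2a.

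Psip1, which encodes the chromatin reader LEDGF that tethers the menin-bound KMT2A complex to chromatin, had 91.1 ± 3.24 CPM in BM LSK, 92.8 ± 7.48 in CNS LSK, 91.9 ± 5.14 in BM LK and 92.8 ± 2.66 in CNS LK (SD, n = 4 each). Psip1 shares exon bases with Snapc3 on the opposite strand. Dot1l had 113 ± 8.68 CPM in BM LSK, 115 ± 9.08 in CNS LSK, 118 ± 7.52 in BM LK and 118 ± 12.6 in CNS LK. Men1, which encodes the menin adaptor between KMT2A and LEDGF, had 23.1 ± 1.98, 24 ± 1.27, 24 ± 2.86 and 24.5 ± 3.05 CPM in the same order of groups. Every difference between these group means was smaller than the SD within at least 1 of the groups compared.

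Ordered per kb of exon, Aff1 was followed by Psip1 (18.1 CPM per kb), Kmt2a (13.6), Dot1l (13.3) and Men1 (6.23). Each step of this order held in 16 of 16 libraries except that between Kmt2a and Dot1l, where Kmt2a was the higher in 11 of 16. These means were higher than those of between 84.3% (Men1) and 96.8% (Aff1) of protein-coding genes. Among the low genes no step of the order held in more than 12 of 16 libraries.

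Hoxa9 encodes the homeodomain factor that, with MEIS1, maintains self-renewal in HOXA-high leukaemia. It had 9, 33, 4 and 11 counts in the BM LSK libraries (0.478, 1.16, 0.178 and 0.478 CPM) and 22, 8, 10 and 16 in CNS LSK (0.955, 0.321, 0.448 and 0.725 CPM). In BM LK it had 4, 5, 5 and 2 counts (0.143, 0.179, 0.239 and 0.0798 CPM), and in CNS LK 2, 4, 20 and 12 (0.107, 0.169, 0.860 and 0.401 CPM). BM LSK 2 was the highest of all. The 4 CNS LSK libraries lay above the 4 BM LK libraries without overlap, while BM LSK and CNS LK overlapped them. The share of all genes that separate in this way was not counted. Against the background of its own library, Hoxa9 was above 1 in 7 of 16 libraries, and its 167 counts in all compare with 138 that background and exon length predict.

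Meis1 encodes the TALE homeodomain partner of HOXA9. It had 9, 13, 0 and 11 counts in BM LSK (0.478, 0.459, 0 and 0.478 CPM) and 20, 25, 17 and 12 in CNS LSK (0.868, 1.00, 0.761 and 0.543 CPM). In BM LK it had 9, 16, 5 and 1 counts (0.323, 0.572, 0.239 and 0.0399 CPM), and in CNS LK 4, 6, 2 and 13 (0.213, 0.254, 0.0860 and 0.435 CPM). The 4 CNS LSK libraries lay above the 4 BM LSK and the 4 CNS LK libraries without overlap, though not above BM LK. Here too the share of all genes that separate was not counted. Background was also highest in CNS LSK, at 0.0728 to 0.107 CPM per kb, against 0.0312 to 0.0821 in BM LSK and 0.0382 to 0.0938 in CNS LK. BM LK had the lowest mean background, with a range of 0.0333 to 0.0484. Meis1 exceeded the background of its own library in 1 of 16, BM LK 2, at 1.17 times. The 0 in BM LSK 3 allows a level of up to 0.133 CPM (3 counts, counting error only).

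Mef2c encodes a MADS-box factor of lymphoid and myeloid progenitors. It had 0.797, 1.27, 0.222 and 0.304 CPM in BM LSK and 1.13, 0.963, 0.940 and 1.09 in CNS LSK. It had 0.502, 0.608, 0.335 and 0.319 CPM in BM LK and 0.320, 0.296, 0.473 and 0.970 in CNS LK. CNS LSK was high and narrow, yet overlapped BM LSK and CNS LK through 1 library of each. Over all libraries Mef2c had 257 counts where background predicts 389, and in 0 of 16 libraries was it above background.

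Hoxa7 and Hoxa10, neighbours of Hoxa9 in the Hoxa cluster, had means of 5.88 and 5.06 counts and were below the minimum of 10 for testing. Hoxa7 had between 3 and 9 counts in BM LSK, 3 and 16 in CNS LSK, 1 and 6 in BM LK, and 1 and 5 in CNS LK. Hoxa10 had between 3 and 7, 5 and 15, 0 and 5, and 2 and 9 counts in the same groups, with 0 in BM LK 3 and BM LK 4, which allows up to 0.144 and 0.120 CPM. Their totals were 1.32 and 1.00 times the background prediction, and Hoxa7 was above background in 9 of 16 libraries and Hoxa10 in 7.

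**Figure D2:**
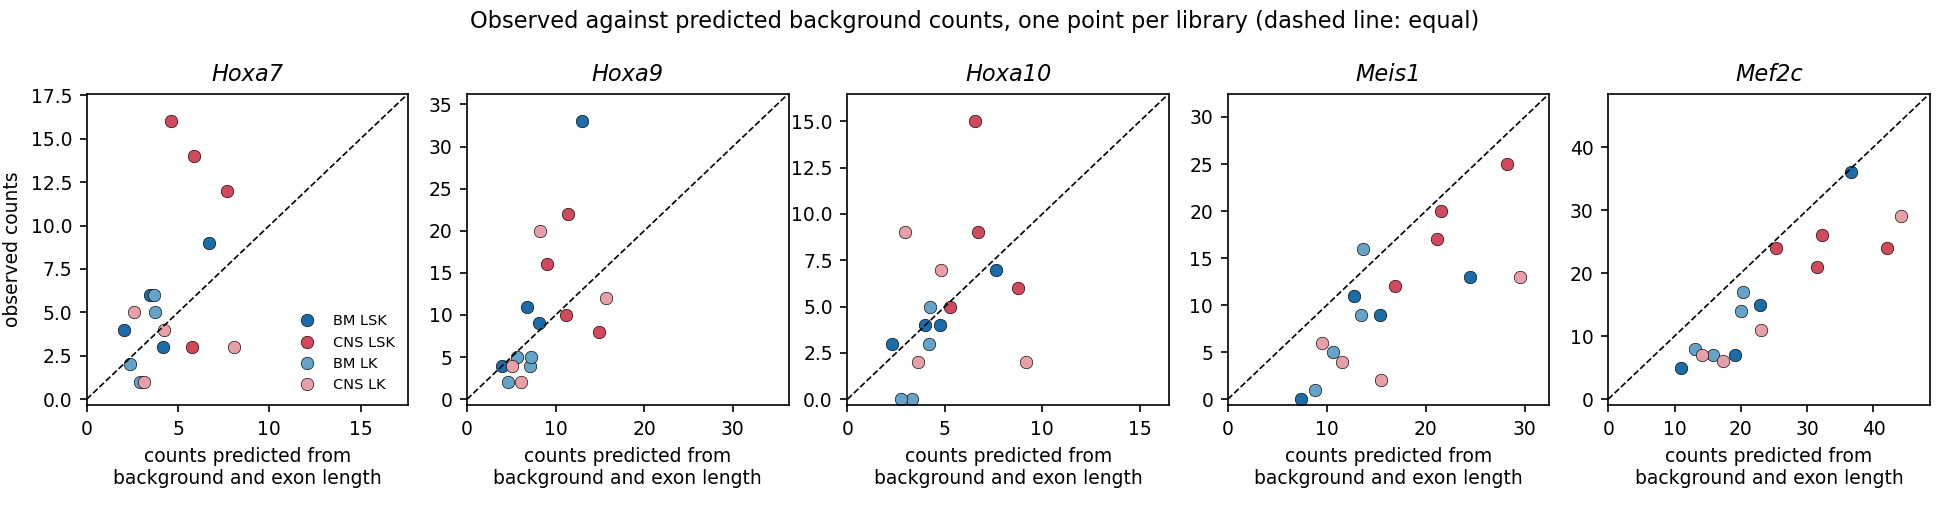
Counts of each low member (y) against the counts predicted from the background of the library and the exon length of the gene (x), 1 point per library coloured by group, with the dashed line where they are equal. Totals run from 0.626 (Meis1) to 1.32 (Hoxa7) times the prediction, and libraries with a higher prediction tend to have more counts.

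Single receptor genes also spread around the background: their median was 0.0491 CPM per kb, with 5% of them below 0.0189 and 5% above 0.138. Hoxa7, Hoxa9 and Hoxa10 were higher than 84.0%, 80.1% and 71.5% of receptor genes, and Mef2c and Meis1 higher than 36.8% and 33.3%. All 5 low members thus lay inside the range of genes taken as silent. With 58 Krtap, or keratin-associated protein genes as the background instead, their median ratios ran from 0.505 (Meis1) to 1.16 (Hoxa7). The highest group totals against background were those of Hoxa7 in CNS LSK, 45 counts where 24 were predicted, with up to 3.46 times background in 1 library, and of Hoxa9 in BM LSK, 57 counts where 31.8 were predicted, with all 4 libraries above background. Whether any low member lay above background was not tested. Depth was 19.2 to 29.2 M (mega) counts per library. Hoxa7 shares exon bases with Hoxaas3 on the opposite strand, Hoxa9 with Mir196b, and Meis1 with Gm16140 and Gm37818, so part of these counts may belong to those genes.

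The other genes of each family were measured in the same way. In the Hoxa cluster 0 of 11 genes reached a median of 5 times background; the highest per kb was Hoxa6, at 0.125 CPM per kb. In the other Hox clusters 1 of 28 genes did so, Hoxb4, a stem cell homeobox gene, at a median of 38.2 times background. Hoxb4 had 5.62 ± 0.766 CPM in BM LSK, 6.37 ± 0.443 in CNS LSK, 6.99 ± 1.92 in BM LK and 6.40 ± 1.53 in CNS LK (SD, n = 4 each), groups that overlapped.

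**Figure D3:**
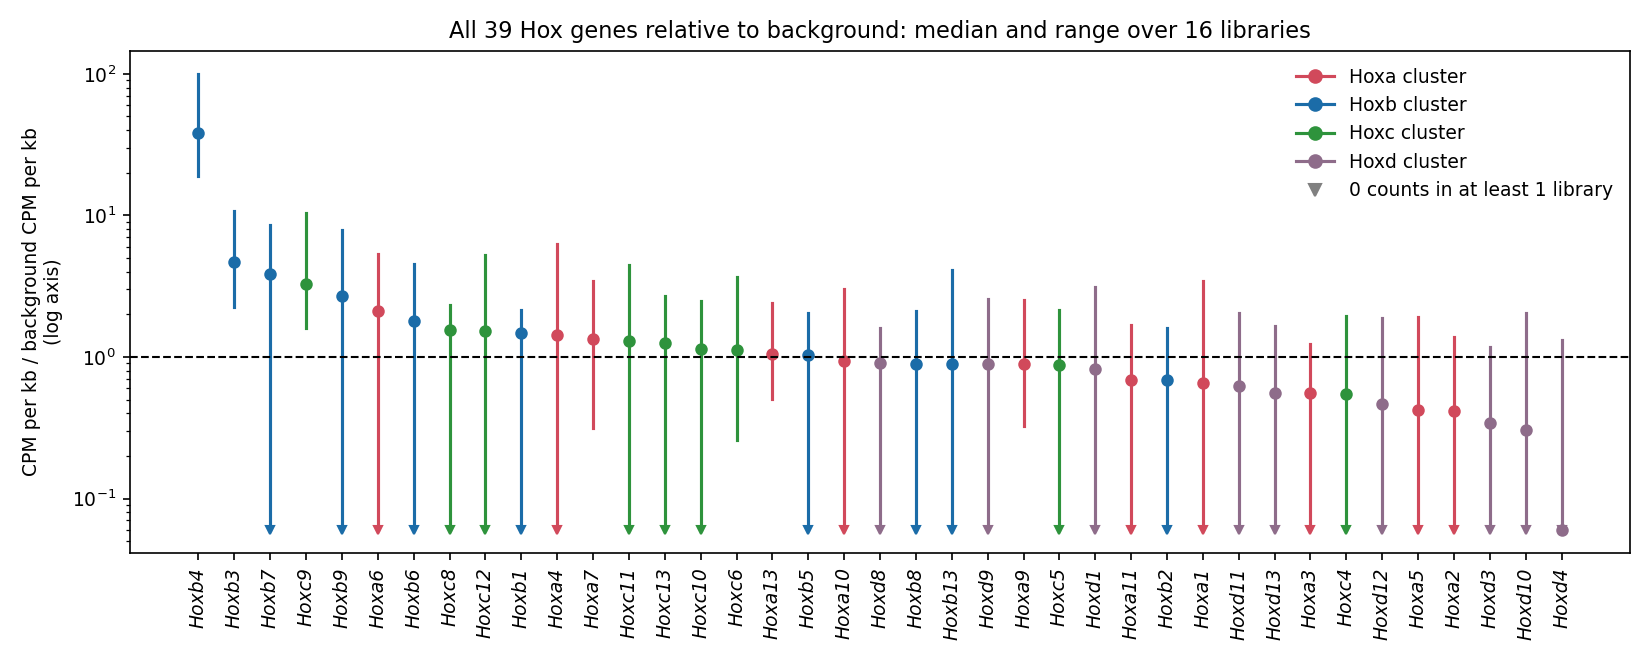
Median (point) and range (line) over the 16 libraries of the level of each of 39 Hox genes divided by background, on a log axis, coloured by cluster and ordered by median. Hoxb4 stands apart at 38.2, and the 11 Hoxa genes spread from 0.414 to 2.11 around the dashed line at 1.

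Where Meis1 was near background, other members of the TALE class were not. Of 11 TALE genes 7 reached 5 times background, the highest being Pbx3, a HOX-binding partner, at 7.06 CPM per kb and 43.1 CPM. Among the 4 MEF2 genes Mef2d was the only one to reach it, at 18.6 CPM per kb against 0.0419 for Mef2c. Of 24 genes reported as KMT2A fusion targets, 11 reached 5 times background and 13, all 5 low members included, did not. Myc, the growth regulator, led with 60.0 CPM per kb; Myb and Cdk6, named here after their values were seen, had 34.0 and 33.8. The Hox, TALE and target lists share genes with the members, and with each other.

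All 16 genes of the KMT2A core and menin list were above 5 times background, led by Hcfc1 (26.4 CPM per kb), a subunit of the KMT2A complex. Of the 23 genes of the super elongation, DOT1L and PAF1 complexes 20 were, with Aff1 the highest; Ell2, Ell3 and Eaf2 were the 3 that were not. Of 16 further fusion partner genes 14 were, led by the ubiquitin ligase gene Cbl (27.5 CPM per kb).

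The study compared the niches, CNS against BM, and the cell types, LSK against LK. edgeR's quasi-likelihood test with Benjamini-Hochberg adjustment called 0 of the 8 members tested in any of the 7 contrasts, at an adjusted threshold of 0.05. The same test called 0.238% of the 18878 genes tested between LSK and LK over both niches, and 0% in each of the 6 others, namely the niche over both cell types, within LSK and within LK, LSK against LK within BM and within CNS, and the interaction. With so few calls in all, the count of 0 sets the members apart from nothing. With the library number of the title as a replicate block, the LSK against LK fit called 0.858% of genes and again 0 members. With counts summed over the BM and CNS library of each label stem, it called 0 genes. At an unadjusted p under 0.05, 2 members passed for LSK against LK over both niches, 1 within BM, 1 within CNS and 0 in the other 4 contrasts. Of all 18878 genes tested, 2288 passed that threshold for LSK against LK over both niches, 1205 within BM and 1242 within CNS. These few members are therefore not read as set apart from all genes. Over 174 fits, DESeq2 and leaving out each library included, the smallest adjusted p of any member was 0.0977.

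**Figure D4:**
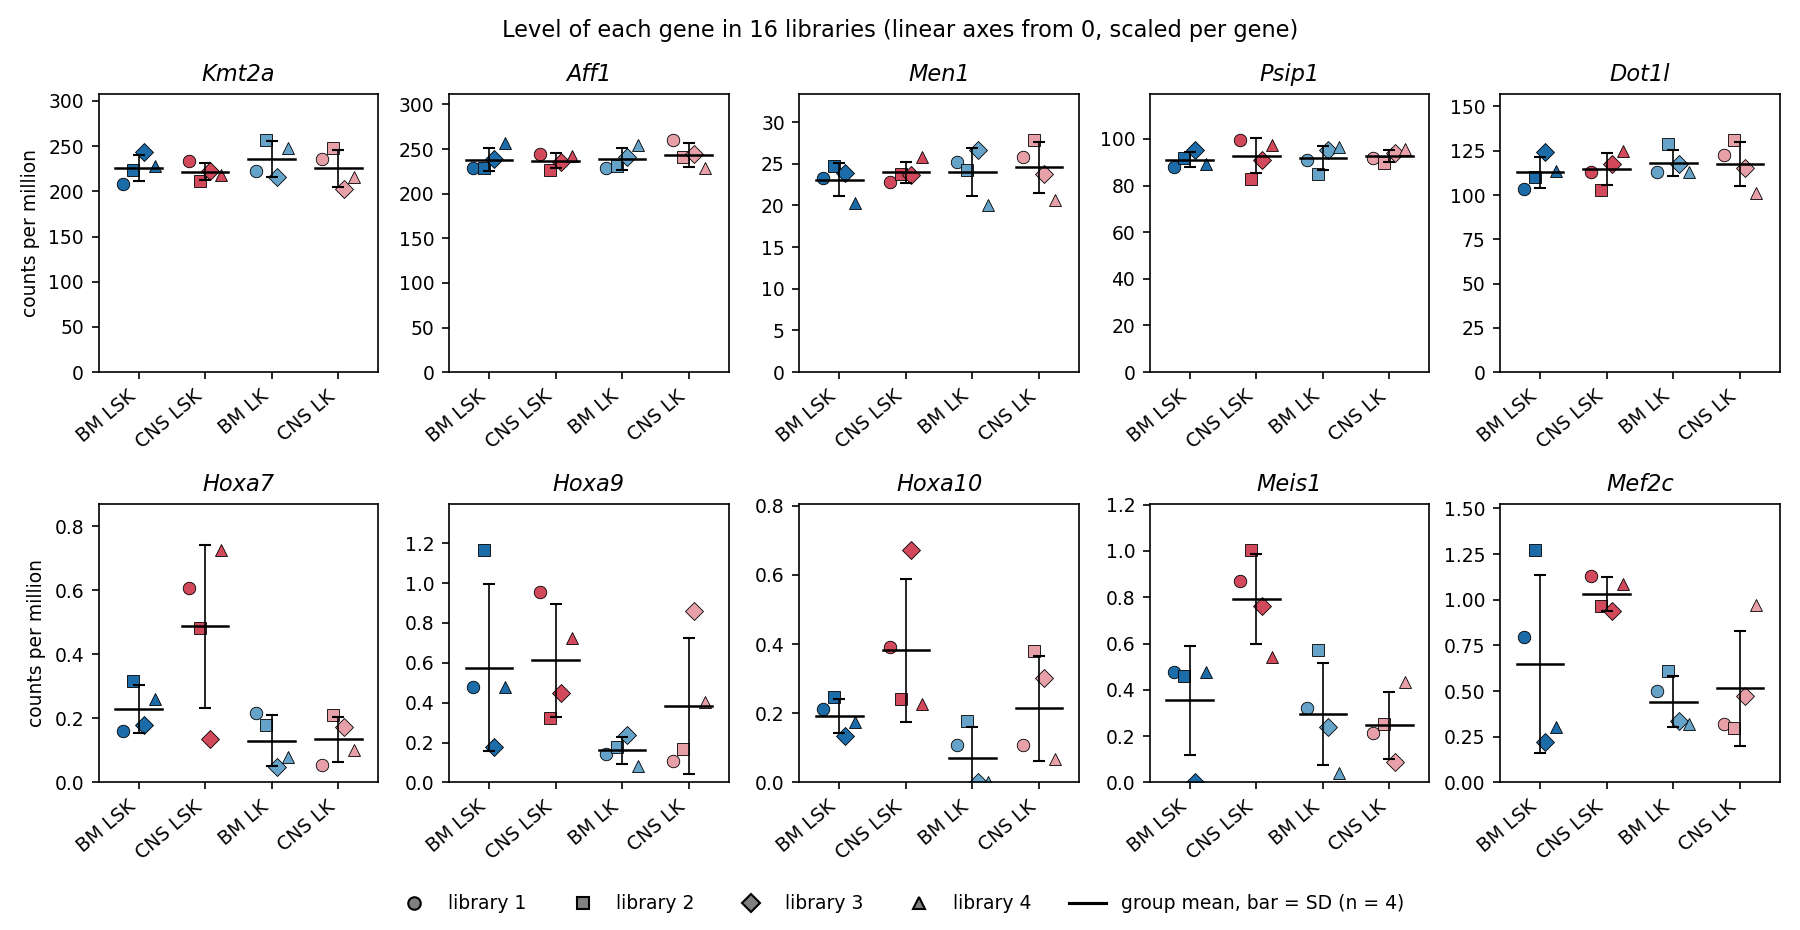
CPM of each member in each library, by group, with symbols for the library number and lines for the group mean ± SD (n = 4), on linear axes from 0 that differ between genes. The upper 5 genes are level across groups, and the lower 5 reach at most 1.27 CPM with wide scatter.

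For the abundant members the estimates were narrow. Between CNS and BM over both cell types, the log2 change was −0.05 ± 0.055 for Kmt2a, 0.01 ± 0.045 for Aff1, 0.04 ± 0.071 for Men1, 0.02 ± 0.047 for Psip1 and 0.0074 ± 0.059 for Dot1l (edgeR, ± SE). The 95% intervals of these 5 changes all lay within a fold of 0.894 to 1.14. Between LSK and LK over both niches, the 5 log2 changes ran from −0.05 (Dot1l) to −0.0068 (Psip1), with 95% intervals inside a fold of 0.874 to 1.07. The interaction, the difference of the niche effect between LSK and LK, ran from −0.03 to 0.04 for the same genes, with intervals inside −0.27 to 0.33 on the log2 scale. Changes beyond these folds lie outside the intervals, each taken for 1 gene at a time. The LSK against LK fit counted the BM and CNS library of a shared label stem as separate. Its intervals may therefore be too narrow.

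Hoxa9 had the smallest p of the members for the cell types. Its log2 level was 1.25 ± 0.43 higher in LSK than in LK over both niches (edgeR, ± SE), with an unadjusted p of 0.00965 and a Benjamini-Hochberg adjusted p of 0.256. Within BM the edgeR difference was 1.86 ± 0.64 (adjusted p = 0.727), and within CNS 0.64 ± 0.58 (adjusted p = 0.852). None of these passed. The fit over both niches counted the BM and CNS library of a shared label stem as separate, so its p may be too small. The counts behind them were 57 in BM LSK, 56 in CNS LSK, 16 in BM LK and 38 in CNS LK, where background predicts 31.8, 46.5, 24.6 and 35. Hoxa9 had a mean of 10.4 counts, just over the minimum of 10 for testing, and reached it only through the LSK libraries.

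Meis1 was 0.93 ± 0.46 higher on the log2 scale in LSK than in LK over both niches, with an edgeR adjusted p of 0.432. Within CNS the difference was 1.63 ± 0.64 (edgeR, adjusted p = 0.733). With a mean of 10.2 counts, Meis1 was tested only through CNS LSK, which held 74 of its 163 counts. CNS LSK was the higher group within CNS, so the test there adds no weight to the difference. Mef2c was 0.75 ± 0.34 higher in LSK over both niches (edgeR, adjusted p = 0.387). For both genes the fit over both niches again counted the BM and CNS library of a stem as separate. Neither gene passed in any contrast, and for Meis1 each group total, from 25 to 74 counts, lay below the background prediction of 46.5 to 87.8 for its group.

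Between CNS and BM over both cell types the same 3 genes had log2 changes of 0.67 ± 0.43 (Hoxa9), 0.46 ± 0.46 (Meis1) and 0.44 ± 0.34 (Mef2c), with edgeR adjusted p of 0.691, 0.834 and 0.759. Within LSK the Meis1 change was 1.16 ± 0.61 (edgeR, adjusted p = 0.856), and Hoxa9 in LK gave 1.28 ± 0.67 (edgeR, adjusted p = 1.00). Meis1 reached the minimum for testing only through CNS LSK, the higher group within LSK, so that test adds no weight to its change. The intervals for these low genes spanned folds from 0.704 to 2.98 over both cell types, much wider than those of the abundant members.

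The background moved the same way as these 3 genes. It was 0.57 higher on the log2 scale in CNS than in BM, in 7 of the 8 label stems that a BM and a CNS library share, and 0.48 higher in LSK than in LK. With the log2 background as a covariate, an alternative added after seeing the data, the LSK against LK change became 0.69 for Hoxa9, 0.17 for Meis1 and 0.05 for Mef2c, and the CNS against BM change 0.09, −0.36 and −0.31. The direction of the niche change therefore turned for Meis1 and Mef2c. With that covariate the edgeR adjusted p for LSK against LK was 0.908 for Hoxa9.

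**Figure D5:**
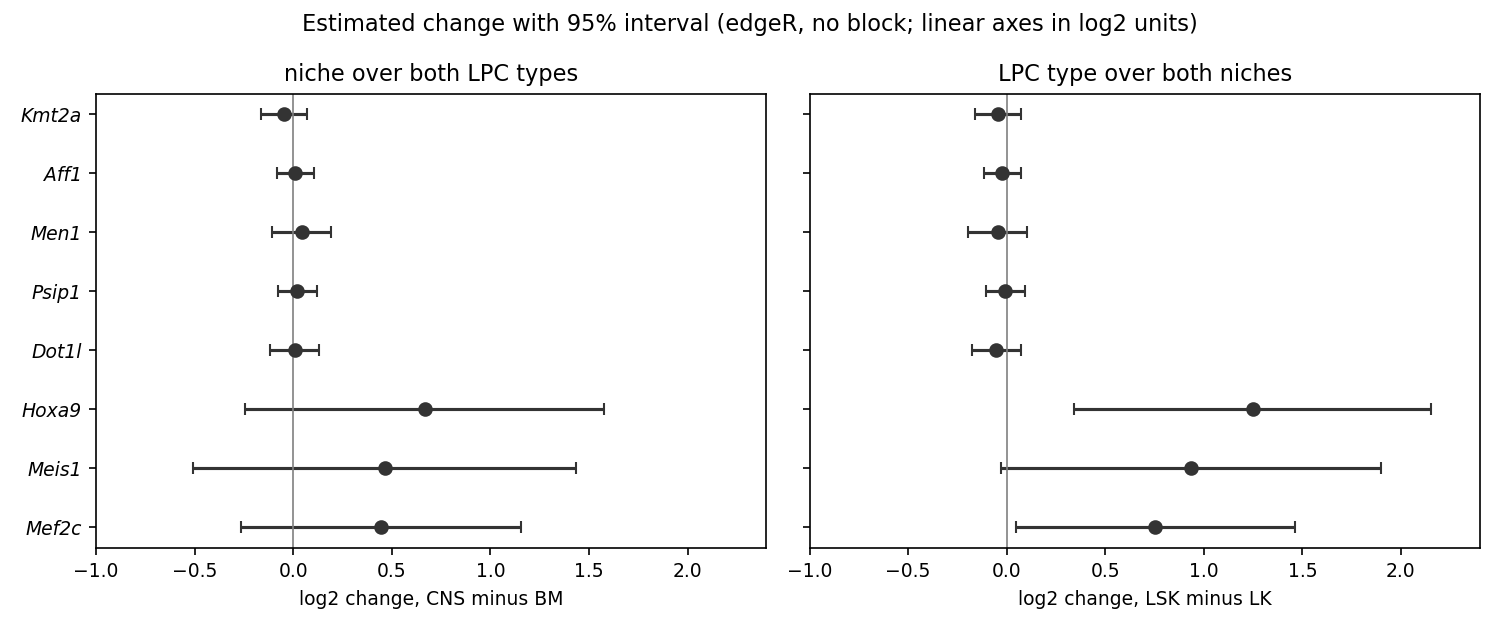
Estimated log2 change with its 95% interval for the 8 members tested, CNS minus BM on the left and LSK minus LK on the right, on linear axes. The LSK minus LK intervals count the BM and CNS library of a shared label stem as separate and may be too narrow. The abundant genes sit at 0 with narrow intervals, and Hoxa9, Meis1 and Mef2c lie to the right of 0 with wide ones that, adjusted over all genes, did not pass.

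In the pathway lists around the members no gene passed in these comparisons without a block. For CNS against BM, 0 of 16 tested genes of the KMT2A core and menin list and 0 of 21 of the super elongation, DOT1L and PAF1 list were called, with median log2 changes of −0.0047 and −0.02 beside −4.27e-07 over all genes tested. For LSK against LK the counts were again 0 and 0, with medians of −0.02 and −0.04 beside −0.01. In the target list 0 of 20 tested genes were called in either comparison, with medians of 0.13 and 0.06, a range of −0.16 to 1.22 for CNS against BM, and 4 and 3 genes at an unadjusted p under 0.05. The 11 TALE genes had medians of 0.15 and 0.16, with 1 and 3 genes at an unadjusted p under 0.05 and 0 called. Of all 18878 genes tested, 1727 and 2288 passed that unadjusted threshold in the same comparisons.

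Gas7, a fusion partner gene encoding an actin-binding adaptor, was the 1 gene of these pathway lists to pass, in the fits that paired libraries by the stem of their label. In LSK it had 56.4, 39.9, 54.7 and 31.0 CPM in BM and 43.5, 20.8, 35.1 and 15.9 in CNS. In LK it had 41.0, 36.3, 48.9 and 34.3 CPM in BM and 33.8, 25.6, 28.5 and 16.6 in CNS. The CNS library was the lower in 8 of 8 stems, and the groups overlapped in LSK but not in LK. How many of all genes did the same was not counted. With the stem as a block, Gas7 fell by 0.68 ± 0.075 on the log2 scale in CNS (edgeR, adjusted p = 0.000146), in a fit that called 0.667% of all genes, and without the block the change was −0.64 (edgeR, adjusted p = 0.333). With the block it also passed within LSK (−0.72, edgeR adjusted p = 0.00432, 0.138% of genes called) and within LK (−0.65, edgeR adjusted p = 0.0266, 0.0636% called). Leaving out each stem in turn gave −0.74 to −0.62 with edgeR adjusted p of 0.000178 to 0.00108. What a stem stands for is not given in the labels.

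Across the 16 libraries the abundant members varied little, and the genes that varied most like them were found among 9589 protein-coding genes by Pearson's r of log2 CPM, a description with no test. For Kmt2a these were Snrnp48 (r = 0.862), Htt (0.855) and Zbtb40 (0.841), and for Dot1l they were Ddx39b (0.899), Atxn2l (0.886) and Zfp592 (0.867). For Men1 they were Sh3gl1 (0.821), Ube2z (0.803) and Sox4 (0.786). Aff1 was most like Rasa1 (0.787), Usp42 (0.769) and Rbl2 (0.763), and Psip1 most like Tmem123 (0.796), Tcf12 (0.790) and Dzip3 (0.780). None of these 15 genes was a member. Among the members themselves the highest r was 0.629, between Kmt2a and Dot1l, and the lowest −0.173, between Aff1 and Men1. All of these values share the same 16 libraries and their depth.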

How the data were processed

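RNA from sorted cells was made into 16 libraries with a stranded low-input total RNA kit, per the labels' protocols. The authors deposited whole-number counts per Ensembl gene; the table calls them normalised, but totals differed between libraries (19.2 to 29.2 M), so they were used as raw counts. The submitters' processing notes name GRCm39 and DESeq2; the aligner, the counter and use of strand are not given in the sources used here. The 3333 identifiers with no symbol held 41.8% of counts and stayed in the library sizes. Per-sample columns left unused numbered 0. The members, lists and rules were chosen with earlier results of these data known.

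Genes with a mean of at least 10 counts (18878) were fitted in edgeR 4.0.16 (R 4.3.3) with TMM scaling and 4 group means. Each of 7 contrasts had a two-sided quasi-likelihood test, Benjamini-Hochberg adjusted over all 18878 at 0.05. CPM values use TMM-scaled library sizes. Levels per kb use union exon lengths of a GRCm38 GENCODE annotation, not the build of the counts. Intervals and floors (3 counts) cover counting error only where they rest on counts, since use of molecular identifiers is not given. Named genes were all members, every pathway-list gene past 0.05 without or with the block, the highest gene per kb of each pathway list, and the 3 genes most like each abundant member (mean of at least 50 counts, prior count 2).

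BM and CNS libraries of one cell type share a description stem. Deviations from the group means correlated over 0.1 within 8 of 8 stems at a mean of at least 50 counts (0.339 to 0.618), and in 6 of 8 at 10, so stems were taken as pairs. Title numbers did so in 6 of 8 at 50. No library repeated another: the chi-square of any pair within a group was 10.6 to 41.6 times its degrees of freedom. Alternatives were DESeq2 1.42.0 and its size factors, no filter, identifiers with a symbol only, the replicate block, counts summed per stem and leaving out each library; added after seeing the data were the background covariate, alone and with the block, each stem left out, and Krtap genes as background. The fit was tested on simulated data.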

Additional observations from a re-analysis of the deposited data

Results flagged for a closer look

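In 1 group a library stood far from the other 3. Meis1 was at 0 CPM in BM LSK 3, where the other BM LSK libraries lay between 0.459 and 0.478 CPM. That library also had the lowest background of the 16, at 0.0312 CPM per kb; its part in the 0 was not tested. Of 44 combinations examined, the 10 members and the background in each of 4 groups, about 2.2 would be picked out by chance.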

How the results depend on the processing

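No member passed 0.05 in any alternative run that gave it an adjusted p. With unfiltered edgeR counts and in DESeq2 the median log2 change of all genes was 0.15 and 0.18 (CNS against BM) and 0.14 and 0.18 (LSK against LK). Those medians cover 53366 and 53364 genes, most of them below the minimum of 10 counts. The size of these medians is therefore not taken off the changes of the members. With no filter the tested members moved the other way, as given below. Genes called for CNS against BM, 0 without a block, became 85 with no filter, 126 with the replicate block, 16 with the block and the background covariate, and 28 in DESeq2; within LSK they were 10, 26 and 4, and within LK 14, 12 and 4 (no filter, block, block with covariate). For LSK against LK, 45 became 290 with no filter, 162 with the block on title number, 0 with counts summed per stem (1870 at an unadjusted p under 0.05), 9 with the covariate and 195 in DESeq2; within BM 0 became 48 with no filter and 32 in DESeq2, and within CNS 38 and 4. Leaving out 1 library gave 15 to 138 for LSK against LK, with 133 without BM LSK 3, 138 without CNS LSK 2 and 105 without CNS LK 4, and 15 to 27 without BM LSK 1, CNS LSK 1, CNS LSK 3, BM LK 1, 2 and 4, and CNS LK 1, 2 and 3. It gave 0 to 2 within BM (2 without BM LK 3) and 0 to 3 within CNS (3 without CNS LSK 2). The causes were not tested. The block changed no call of a member.

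Directions turned only for changes that had not passed. For CNS against BM with no filter the log2 change was −0.047 for Aff1, −0.013 for Men1, −0.039 for Psip1 and −0.050 for Dot1l. In DESeq2 it was −0.018, −0.0092 and −0.020 for Aff1, Psip1 and Dot1l. With the filter Aff1 had been at 0.011, Men1 at 0.043, Psip1 at 0.020 and Dot1l at 0.0074. Kmt2a moved down as well with no filter, from −0.047 to −0.105. So did Hoxa9, Meis1 and Mef2c, from 0.67, 0.46 and 0.44 to 0.61, 0.41 and 0.39. These turns are therefore read as a shift common to the genes named, not as separate reversals. The cause of that shift was not tested. With the covariate, and with block and covariate, Kmt2a was 0.035 and 0.022, Meis1 −0.36 and −0.64, and Mef2c −0.31 and −0.31. For LSK against LK with the covariate, Kmt2a was 0.027, Aff1 0.018, Psip1 0.013 and Dot1l 0.044; Psip1 was 0.012 with symbols only. Within LSK, covariate then block and covariate, Hoxa9 was −0.48 and −0.48 and Mef2c −0.0097 and −0.015, and Meis1 −0.085 with both. Within LK, Mef2c was −0.61 and −0.60. Within BM, covariate, Meis1 was −0.55 and Mef2c −0.25. Leaving out 1 library, CNS against BM ran from −0.0065 to 0.029 for Aff1 and −0.022 to 0.041 for Dot1l, and LSK against LK from −0.024 to 0.023 for Psip1. Within LSK Hoxa9 ran from −0.24 to 0.27, and within LK Meis1 from −0.69 to 0.048 and Mef2c from −0.29 to 0.44. Within BM Meis1 ran from −0.12 to 0.64 and Mef2c from −0.048 to 0.84. The Mef2c ranges cover 16 runs, but those of Hoxa9 only 13 and those of Meis1 only 12. In the other runs the gene fell below the minimum for testing. Those runs left out its highest counts: BM LSK 2, CNS LSK 1 or CNS LK 3 for Hoxa9, and CNS LSK 1, 2 or 3 or BM LK 2 for Meis1. How far those libraries carry the changes was therefore not tested. Gas7 passed with no filter (−0.70, edgeR adjusted p = 3.35e-05), the block, and block with covariate (−0.57, edgeR adjusted p = 0.0212), not in DESeq2 (−0.67, adjusted p = 0.167).

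The low members had 0 to 36 counts per library, and the 95% intervals of the 3 tested spanned folds of 0.704 to 2.98 for CNS against BM.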
